A study of Mus musculus with 12 samples.

Results

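Livers lacking p53 were compared with wild-type livers on a high-fat diet (HFD). The comparison took every library labelled p53 ko and HFD and every library labelled p53 wt and HFD, 6 of the 12 libraries of the study, in 3 replicates each, and all genes measured in them. The other 6 libraries, 3 wt and 3 ko on a normal diet, are used here to estimate the spread and to show where an effect of the knockout differed between diets. All 12 libraries came from total RNA of the liver of C57BL/6 mice aged 12 weeks. The sources used here do not give how the knockout was made, the sex of the mice, the composition and length of the diet, the feeding state or the time of sampling. No label says whether replicates are separate mice, so the p-values reflect only how far these libraries spread, and that spread may be technical.

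p53, encoded by Trp53 in the mouse, is a transcription factor that is held at a low level by the ubiquitin ligase Mdm2 and raised by DNA damage and other stress. It turns on genes that stop the cell cycle, repair DNA or start cell death, and it also acts on metabolic genes. Hepatocytes make cholesterol from acetyl-CoA through the mevalonate pathway. Its genes are activated by the sterol-sensing factor Srebf2, and squalene epoxidase, encoded by Sqle, performs its first oxygen-requiring step. The title of the series names Sqle as a gene controlled by p53.

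Total counts in the 6 HFD libraries ran from 15757330 to 18615222. Levels are given as CPM, read counts scaled by the library total and its TMM factor, and differences as the fitted log2 value of ko minus wt with its standard error (SE). CPM are not divided by gene length, so they are compared between libraries and not between genes. Among hepatocyte markers, albumin (Alb) ran from 17789 to 45464 CPM. Single HFD libraries stood apart in some transcripts, as given beside each result. These were wt replicate 2 in markers of bile ducts and stellate cells and wt replicate 3 in immediate early genes. Among ko they were replicate 2 in mitochondrial transcripts and replicate 3 in the adipocyte gene Cfd. In the mean level of acute phase genes, ko replicates 2 and 3 lay far below ko replicate 1 and the wt libraries. On the normal diet, wt replicate 2 held transcripts of skeletal muscle.

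Trp53 (chr11:69580359-69591873 of GRCm38) had 142, 166 and 432 counts in the wt HFD libraries and 12, 13 and 12 counts in the ko HFD libraries. In normalised counts this was 8.54, 10.7 and 24.5 CPM against 0.701, 0.748 and 0.752 CPM. Every ko library lay below every wt library, and wt replicate 3 was the highest. This was a log2 change of -4.30 (SE 0.56) with adjusted p = 0.0136 in edgeR's quasi-likelihood test. It was lost as a call without any single ko HFD library, where the adjusted p reached 0.0966.

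Of the 14433 genes tested, 10 were called at an adjusted p under 0.05. The 6 genes called higher in ko are 0.0416% of all genes tested, and the 4 called lower are 0.0277%. They comprised 5 protein-coding genes (Ddah1, Akr1d1 and Hoga1 higher, Trp53 and Serpine2 lower), 4 predicted noncoding gene models and the mitochondrial glycine tRNA gene mt-Tg. At an unadjusted p under 0.05 there were 650 genes higher and 628 lower. The median log2 change of all genes was -0.01, and 48.9% of them lay above 0. The plot of all genes tested shows that, among the called genes, the predicted models and mt-Tg lie farthest from 0 and the enzymes nearer to it. Some genes that were not called lie as far out, down to -8.96.

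**Figure D1:**
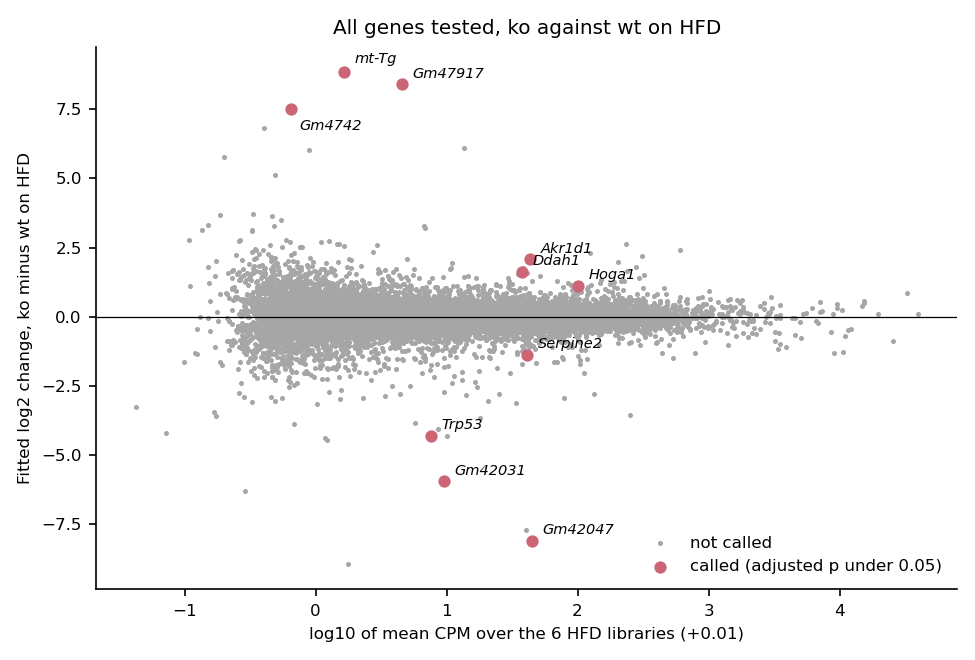
Fitted log2 change of ko minus wt on HFD (vertical axis) against the log10 of the mean CPM over the 6 HFD libraries plus 0.01 (horizontal axis), 1 point for each of the 14433 genes tested. The 10 called genes are red and named: 6 lie above 0 and 4 below.

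Ddah1 (chr3:145758675-145894277), the enzyme that degrades asymmetric dimethylarginine, an inhibitor of nitric oxide synthase, had the smallest p of all genes. It stood at 19.8, 18 and 17.7 CPM in the wt libraries and at 46.1, 62.9 and 62.5 CPM in the ko libraries. Each ko library was above each wt library by more than the spread of either group. Ddah1 rose by 1.63 (SE 0.18, adjusted p = 0.00807 by edgeR's quasi-likelihood test). It was the only gene of the 10 called in all 20 alternative settings, with log2 changes of 1.55 to 1.76.

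Akr1d1 (chr6:37530173-37568815), a steroid reductase of bile acid synthesis, stood at 20.6, 16.3 and 13.3 CPM in wt and at 69.3, 67.4 and 74.3 CPM in ko. The ko libraries lay close together and far above the wt libraries. The gene rose by 2.07 (SE 0.27, adjusted p = 0.0136), and lost its call without wt HFD replicate 2 or 3 or without any ko HFD replicate (adjusted p up to 0.100).

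Hoga1 (chr19:42045610-42070953), the mitochondrial aldolase that completes hydroxyproline breakdown, stood at 70.9, 56.3 and 62.9 CPM in wt and at 121, 152 and 141 CPM in ko. The groups did not overlap. Hoga1 rose by 1.12 (SE 0.17, adjusted p = 0.0300 by edgeR), and was called in 9 of the 20 alternative settings.

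Serpine2 (chr1:79794197-79861180), a secreted inhibitor of thrombin and other serine proteases, was, besides Trp53, the only protein-coding gene called lower. It stood at 65.3, 66.9 and 46.7 CPM in wt and at 23.8, 18.7 and 26.6 CPM in ko, with all ko libraries below all wt libraries. Its log2 change was -1.37 (SE 0.21, adjusted p = 0.0385), and it was called in 8 of the 20 alternative settings. Hoga1 and Serpine2 each lost their call without any single ko HFD library and without wt HFD replicate 1 or 2, and Hoga1 also without wt HFD replicate 3.

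**Figure D2:**
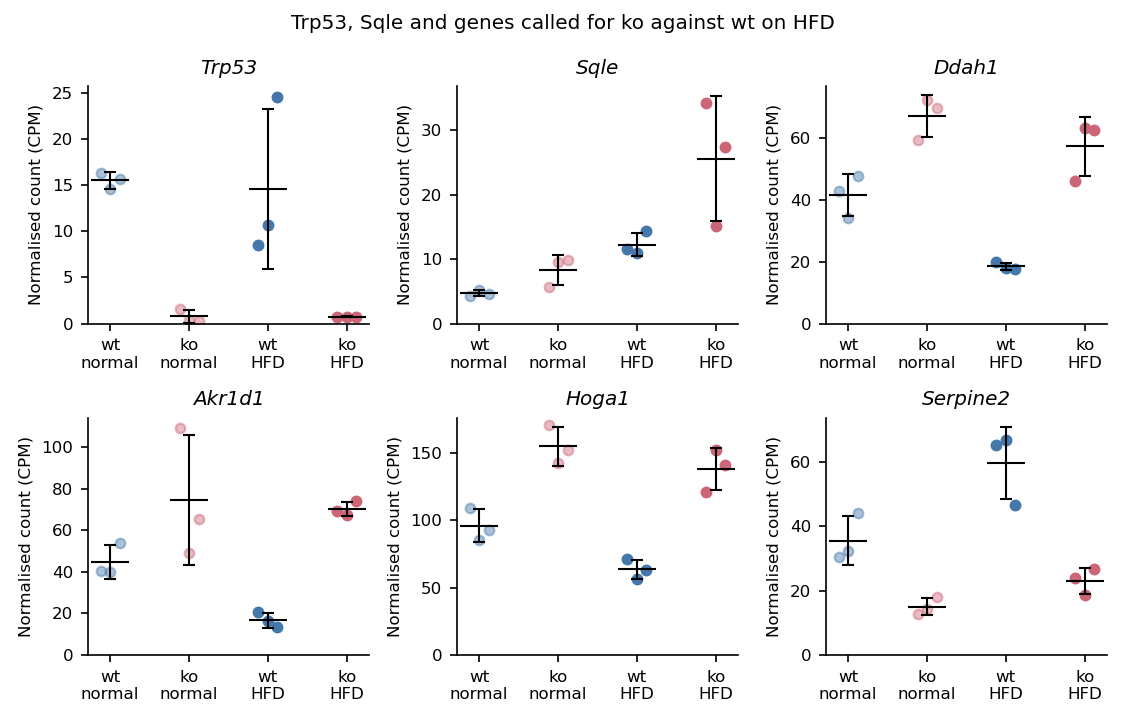
Normalised counts (CPM) of Trp53, Sqle and the 4 other called protein-coding genes in the 4 groups of 3 libraries, with HFD libraries in full colour and normal-diet libraries pale. Each point is a library, the horizontal line the mean and the whisker the SD. On HFD the ko points of Ddah1, Akr1d1, Hoga1 and Sqle lie above all wt points, and those of Trp53 and Serpine2 below.

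These 4 genes were also measured on the normal diet, where Serpine2 was called lower (log2 change -1.25, adjusted p = 0.0449) and the other genes had log2 changes of 0.69 (Ddah1), 0.73 (Akr1d1) and 0.69 (Hoga1) with adjusted p from 0.0973 to 0.211. In the wt libraries, Ddah1 ranged from 34.2 to 47.7 CPM on the normal diet and from 17.7 to 19.8 CPM on HFD. In the ko libraries it ranged from 59.3 to 72.1 CPM and from 46.1 to 62.9 CPM. The difference between the ko effects of the diets was 0.94 for Ddah1 (adjusted p = 0.771), 1.34 for Akr1d1 (adjusted p = 0.828) and 0.43 for Hoga1 (adjusted p = 0.981) by edgeR's quasi-likelihood test, so none was shown to differ between diets.

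Among the called noncoding genes, 2 long intergenic RNAs on chromosome 8 were nearly absent from ko. Gm42047 (chr8:121833247-121841178) had 490, 2412 and 1431 counts in wt and 2, 11 and 3 counts in ko (log2 change -8.10, SE 1.03, adjusted p = 0.0136). Gm42031 (chr8:85125872-85132289) had 162, 471 and 285 counts in wt and 2, 7 and 6 counts in ko (log2 change -5.94, SE 0.80, adjusted p = 0.0137). Both fell on the normal diet too, with log2 changes of -8.14 and -4.87. Gm42047 and Gm42031 lost their call without any single ko HFD library and by voom with quality weights, an alternative test (adjusted p up to 0.508 and 0.408).

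Other called noncoding genes showed the opposite pattern, with counts in ko and next to none in wt. Gm47917 (chr10:54063811-54065069), annotated as antisense, had 208, 205 and 55 counts in ko and 1 count in all wt HFD libraries together, a ratio of 462 (95% interval 82.5 to 18275, counting error only). The processed pseudogene Gm4742 (chr14:52368918-52369688) had 24, 17 and 23 counts in ko and none in wt, and was at least 21.05-fold higher against a floor of 3 counts over the group. The sources used here do not say whether counting used strand, so reads of an antisense gene and of the gene opposite, or of a pseudogene and its parent, cannot be told apart. Gm4742 lost its call without any single HFD library and was called in 7 of 19 alternative settings. Gm47917 lost its call without wt HFD replicate 3 and by voom with quality weights (adjusted p up to 0.244). These 4 models, mt-Tg, Trp53 and Serpine2 are the 7 genes called in the same direction on both diets.

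Mitochondrial tRNAs are cut from long transcripts of the mitochondrial genome and carry amino acids to its own ribosomes. The genes for the glycine and arginine tRNAs, which lie close together on the same strand, had counts in every ko library. Their sequences in GENCODE M21 are shown because these short genes are among the clearest absences in wt.
mt-Tg, chrM:9391-9458: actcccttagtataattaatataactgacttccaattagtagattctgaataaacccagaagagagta
mt-Tr, chrM:9808-9875: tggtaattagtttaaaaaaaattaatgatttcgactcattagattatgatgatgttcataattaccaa
mt-Tg had 57, 78 and 32 counts in the ko HFD libraries and no count in any wt HFD library. It was at least 54.9-fold higher against a floor of 3 counts over the group (adjusted p = 0.0385 by edgeR). The call was lost without any single HFD library and by voom with quality weights, and held in 10 of the 20 alternative settings. mt-Tr had 29, 36 and 24 counts in ko and 1 count over the wt libraries, a ratio of 87.8 (15.4 to 3507), with an adjusted p of 0.0506, just past the threshold. All 6 ko libraries of both diets held more of each tRNA than any wt library: on the normal diet mt-Tg ran from 0.998 to 3.71 CPM in ko and was at 0 in wt. The gene between both tRNA genes, mt-Nd3, which encodes a subunit of respiratory complex I, stood at 22.2, 19.6 and 12.6 CPM in wt and at 42.7, 71.9 and 41.7 CPM in ko. It too was higher in all ko HFD libraries (1.52, adjusted p = 0.348 by edgeR), with a log2 change of 1.75 on the normal diet. All 13 mitochondrially encoded protein genes lay above 0 on HFD. Of them 1, mt-Nd3, was higher in all ko than in all wt libraries, against 6.70% of all genes. None was called. Their median was 0.47, which was 0.10 without ko HFD replicate 2, and 1.08 on the normal diet. The mitochondrially encoded genes together took 4.58%, 6.51% and 4.90% of counts in wt and 4.18%, 10.3% and 7.22% in ko. The part of the other mitochondrial transcripts in the tRNA values was not tested.

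Among the genes next in p after the called ones were Cyp2a5 and Cyp3a11, cytochrome P450 enzymes that oxidise drugs and other foreign compounds. Both were higher in every ko library than in every wt library. Other genes there were Apol9b, an apolipoprotein L family gene (1.31, adjusted p = 0.0509), Pecr, a peroxisomal enzyme of fatty acid chain elongation (1.03, adjusted p = 0.0622), Fmo1, a flavin monooxygenase (0.92, adjusted p = 0.0699), and Car3, a carbonic anhydrase (2.42, adjusted p = 0.133). On the lower side stood the ciliary gene Cplane1 (-1.49, adjusted p = 0.0756), the dynactin subunit gene Actr10 (-0.81, adjusted p = 0.121) and Rpap3, a cofactor in polymerase assembly (-1.14, adjusted p = 0.150). Each of these genes was picked as not called and with groups that do not overlap, so that feature follows from the choice. Over all genes it held for 967 genes higher in ko (6.70% of all tested) and 989 lower (6.85%).

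Of the list of 28 p53 target genes, 27 were tested, none was called, 19 lay below 0 and 5 were lower in all ko than in all wt libraries, against 6.85% of all genes. The list had a median log2 change of -0.38, beside -0.01 for all genes, and stayed between -0.45 and -0.30 when any single library was left out. Cdkn1a, an inhibitor of cyclin-dependent kinases, stood at 10.0, 13.7 and 76.6 CPM in wt and at 1.23, 2.48 and 4.14 CPM in ko. All ko values were below all wt values, but wt replicate 3 lay far above the other wt libraries, and the log2 change of -3.68 (SE 0.86) had an adjusted p of 0.267. On the normal diet Cdkn1a was called lower in ko (-5.22, adjusted p = 0.0471 by edgeR's quasi-likelihood test). Aen, a nuclease of apoptotic cells, stood at 10.3, 9.87 and 13.9 CPM against 7.65, 4.84 and 6.21 CPM (-0.87, adjusted p = 0.424). Btg2, an antiproliferative gene, reached 155 CPM in wt replicate 3, against 7.76 and 20.3 CPM in the other wt libraries and 4.45 to 9.87 CPM in ko (-3.12, adjusted p = 0.348). Its groups overlapped. Mdm2, both target and inhibitor of p53 and chosen here after its values were seen, ran from 21.5 to 29.0 CPM in wt and from 17.1 to 20.1 CPM in ko (-0.38, adjusted p = 0.521).

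Wt replicate 3, the highest library for Trp53, Cdkn1a and Btg2, was also the highest for immediate early genes, which respond within minutes to growth factors and stress. Egr1 stood at 18.9, 34.3 and 648 CPM in wt and at 17.8, 38.3 and 45.3 CPM in ko, and Jun at 31.2, 64.1 and 219.5 CPM against 39.3, 24.1 and 36.6 CPM. All 15 tested genes of the list lay below 0, with a median of -1.06 and no call, and 2 of them were lower in all ko libraries (6.85% of all genes). Without wt replicate 3 the median was -0.16. The part of this library in the p53 target values was not tested beyond leaving it out, which gave a median of -0.30 for that list.

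Cholesterol synthesis genes were measured from early to late steps of the pathway. Sqle (chr15:59315077-59331192) stood at 11.5, 10.9 and 14.3 CPM in wt and at 34.2, 15.1 and 27.5 CPM in ko. Every ko library was above every wt library, with ko replicate 2 only just so. The log2 change was 1.06 (SE 0.29), and it did not pass the test (adjusted p = 0.343 by edgeR's quasi-likelihood test). Across the 20 alternative settings it ran from 0.79 to 1.33 and was never called, with adjusted p from 0.0653 to 0.709. On the normal diet Sqle ran from 4.31 to 5.24 CPM in wt and from 5.68 to 9.92 CPM in ko (0.83, adjusted p = 0.209). The difference between the ko effects of the diets on Sqle was 0.23 (adjusted p = 0.999 by the same test), so it was not shown to differ between diets.

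Of the 18 genes of the list none was called, 16 lay above 0, and 7 were higher in all ko than in all wt libraries, against 6.70% of all genes. The median log2 change was 0.40, and 0.25 without ko replicate 1. The 7 were Hmgcs1, Sqle, Tm7sf2, Msmo1, Nsdhl, Sc5d and Dhcr7. Hmgcs1, the synthase that makes the precursor of mevalonate, stood at 59.5, 53.6 and 72.5 CPM in wt and at 91.7, 147 and 122 CPM in ko (0.96, adjusted p = 0.348). Nsdhl, which removes methyl groups from sterols, stood at 8.12, 6.19 and 13.8 CPM against 22.8, 15.7 and 21.4 CPM (1.09, adjusted p = 0.401). Sc5d, a desaturase near the end of the pathway, stood at 96.3, 76.9 and 89.7 CPM against 157, 122 and 173 CPM (0.78, adjusted p = 0.307). The median of the list on the normal diet was 0.47.

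**Figure D3:**
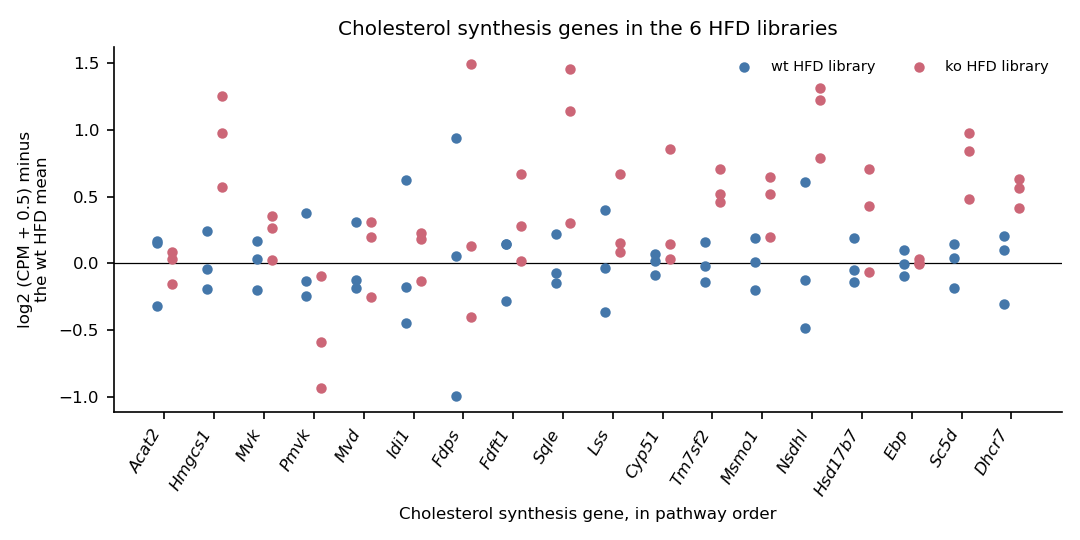
Cholesterol synthesis genes in pathway order (horizontal axis) with 1 point for each of the 6 HFD libraries, as log2 (CPM + 0.5) minus the mean of the wt HFD libraries (vertical axis). Blue points are wt and red points ko. In 7 of the 18 genes, Sqle, Hmgcs1, Nsdhl and Sc5d among them, all red points lie above all blue points.

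The promoters of 15 of the 18 genes were matched by symbol in RefSeq on GRCm38.p6 (all but Fdps, Fdft1 and Sqle). The windows of the 3 genes with the smallest p among those matched are shown, from 250 bases before to 50 after the start, since these genes were higher in all ko libraries. Capitals mark exact matches, on either strand, of TCACNCCAC, a form of the sterol regulatory element bound by Srebf2, and of CCAAT, the box bound by NF-Y.
Sc5d, chr9:42264251-42264550, minus strand: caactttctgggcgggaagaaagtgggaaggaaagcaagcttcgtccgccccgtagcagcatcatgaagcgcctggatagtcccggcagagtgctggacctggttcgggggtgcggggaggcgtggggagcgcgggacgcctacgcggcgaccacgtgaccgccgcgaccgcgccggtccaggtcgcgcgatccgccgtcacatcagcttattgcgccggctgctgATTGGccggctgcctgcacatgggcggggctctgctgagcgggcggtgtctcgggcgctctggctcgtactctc
Hmgcs1, chr13:119690101-119690400, plus strand: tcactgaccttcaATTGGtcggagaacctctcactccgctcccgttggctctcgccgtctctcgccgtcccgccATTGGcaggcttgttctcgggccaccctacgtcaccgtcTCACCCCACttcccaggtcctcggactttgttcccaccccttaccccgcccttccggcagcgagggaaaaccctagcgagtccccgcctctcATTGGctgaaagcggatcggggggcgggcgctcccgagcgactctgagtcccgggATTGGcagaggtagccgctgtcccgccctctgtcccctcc
Nsdhl, chrX:72918271-72918570, plus strand: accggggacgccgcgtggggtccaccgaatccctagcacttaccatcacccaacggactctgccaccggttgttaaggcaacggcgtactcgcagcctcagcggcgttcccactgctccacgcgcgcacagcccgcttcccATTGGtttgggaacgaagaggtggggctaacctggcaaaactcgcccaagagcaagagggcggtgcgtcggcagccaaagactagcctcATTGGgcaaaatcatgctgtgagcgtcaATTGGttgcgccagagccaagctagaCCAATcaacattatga
The Hmgcs1 window held 1 match of TCACNCCAC and 4 of CCAAT, the Nsdhl window 0 and 4, and the Sc5d window 0 and 1. TCACNCCAC was found in a window of 1 of the 15 genes and in 1.24% of the 32851 windows of the table, and CCAAT in a window of 14 of the 15 genes and in 37.4% of all windows. Dhcr7 and Pmvk have several windows each, and any was counted.

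The regulators of the pathway were read beside its enzymes. Srebf2 stood at 32.0, 23.9 and 28.1 CPM in wt and at 35.0, 39.8 and 38.9 CPM in ko (0.44, adjusted p = 0.484). Scarb1, the receptor that takes up cholesterol from high-density lipoprotein, stood at 77.1, 71.4 and 87.2 CPM against 99.6, 122 and 128 CPM (0.57, adjusted p = 0.340). In both genes all ko libraries were above all wt libraries, and they were the 2 of 14 genes of sterol sensing and uptake for which this held (6.70% of all genes). The median of that list was 0.15. Srebf1, which drives fatty acid synthesis, overlapped between groups (0.78, adjusted p = 0.506) and was called on the normal diet (1.81, adjusted p = 0.0449). The difference between diets for Srebf1 was -1.03 (adjusted p = 0.942). Abcg8, a subunit of the transporter that exports sterols into bile, was higher in all ko libraries, at 41.8, 52.9 and 32.1 CPM in wt and 66.9, 74.0 and 58.3 CPM in ko (0.65, adjusted p = 0.388).

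Of 17 tested genes of fatty acid and triglyceride synthesis, none was called, 15 lay above 0 and 4 were higher in all ko libraries, against 6.70% of all genes. The median was 0.52, and 0.23 without ko replicate 1. Fasn, fatty acid synthase, stood at 68.2, 62.7 and 55.6 CPM in wt and at 130.5, 99.9 and 72.9 CPM in ko (0.70, adjusted p = 0.401). Scd1, the stearoyl-CoA desaturase, varied widely, at 116, 54.3 and 329 CPM against 318, 486 and 620.2 CPM, so that the lowest ko library lay below the highest wt library (1.51, adjusted p = 0.519). Thrsp, a lipogenic gene, ran from 11.5 to 157 CPM in wt and from 46.9 to 938 CPM in ko, and the groups overlapped. Fitm1, which promotes the budding of lipid droplets, stood at 17.3, 34.1 and 30.0 CPM in wt and at 37.6, 83.9 and 105 CPM in ko (1.48, adjusted p = 0.307), with all ko libraries above all wt libraries. Of 21 genes of fatty acid oxidation and ketone synthesis, 11 lay above 0 and 10 below, with a median of 0.06 that was -0.15 without ko replicate 3. Among them Fgf21, a hormone of fasting and nutrient stress, was at 338, 10.97 and 66.5 CPM in wt and at 8.70, 29.9 and 15.1 CPM in ko (-2.95, adjusted p = 0.455), and its groups overlapped.

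In bile acid synthesis, Akr1d1 was the 1 called gene of 13 tested, beside 0.0416% of all genes called higher. Of the 13, 1 was higher in all ko libraries and 1 lower, against 6.70% and 6.85% of all genes. The median was 0.12, from 0.06 without ko replicate 1 to 0.26 without wt replicate 3. Cyp7a1, the rate-limiting enzyme, stood at 13.5, 10.8 and 28.2 CPM in wt and at 24.5, 29.5 and 124 CPM in ko, with overlap (1.76, adjusted p = 0.499). Cyp7b1, of the alternative pathway, stood at 349, 779 and 432 CPM against 292, 209 and 302 CPM and was lower in all ko libraries (-0.96, adjusted p = 0.399). Nr0b2, the repressor induced by bile acids, stood at 52.8, 46.9 and 33.6 CPM in wt and at 54.6, 99.1 and 85.2 CPM in ko (0.84, adjusted p = 0.563).

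Genes of xenobiotic metabolism oxidise, conjugate and export foreign compounds. Of 26 tested, 10 were higher in every ko library, against 6.70% of all genes, and 22 lay above 0, with none called. The median was 0.50, from 0.37 without ko replicate 1 to 0.91 without wt replicate 3. Cyp3a11 stood at 77.8, 162 and 104 CPM in wt and at 465, 256 and 366 CPM in ko (1.66, SE 0.29, adjusted p = 0.0609). Cyp2a5 stood at 157, 107 and 69.9 CPM against 708, 459 and 346 CPM (2.18, SE 0.35, adjusted p = 0.0506). The lowest ko library lay above the highest wt library in both genes, and ko replicate 1 was the highest.

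Gsta2, a glutathione transferase, stood at 0.481, 1.42 and 0.623 CPM in wt and at 5.02, 5.87 and 4.33 CPM in ko (2.60, adjusted p = 0.0805), and Slco1a4, an uptake transporter, at 3.19, 3.94 and 6.46 CPM against 20.4, 15.1 and 16.8 CPM (1.94, adjusted p = 0.150). Cyp3a59, outside the list, stood at 0.842, 2.58 and 0.623 CPM against 21.1, 10.1 and 5.95 CPM (3.21, adjusted p = 0.0509). Cyp2b10, chosen after its values were seen, was high in ko replicate 1 alone, at 33.1 CPM, with 0.115 and 3.26 CPM in the other ko libraries and 0.113 to 3.48 CPM in wt. The receptors that sense foreign compounds, Nr1i2 (0.24) and Nr1i3 (-0.01), are named outside the rule for naming genes. They overlapped between groups, with adjusted p of 0.868 and 0.996. The Cyp3a, Cyp2a and Gsta families hold near-identical genes, and the sources used here do not say how reads shared between copies were counted.

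On the normal diet the median of the same list was 0.08. Cyp3a11 had a log2 change of -0.17 there and Gsta2 of -0.16, as the plot of both diets shows. In wt, Cyp3a11 ran from 1273.5 to 1651 CPM on the normal diet and from 77.8 to 162 CPM on HFD. In ko it ran from 1181 to 1521 CPM and from 256 to 465 CPM. Gsta2 ran in wt from 17.1 to 20.3 CPM and from 0.481 to 1.42 CPM. In ko Gsta2 ran from 9.70 to 29.7 CPM and from 4.33 to 5.87 CPM. In both genes every HFD library, wt or ko, lay below every normal-diet library. Wt Cyp3a59 ran from 17.6 to 27.6 CPM on the normal diet, against 14.1 to 21.9 CPM in ko. The difference between the ko effects was 1.83 for Cyp3a11, 2.76 for Gsta2 and 3.40 for Cyp3a59 and did not pass the test (adjusted p = 0.675 for each by edgeR's quasi-likelihood test).

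**Figure D4:**
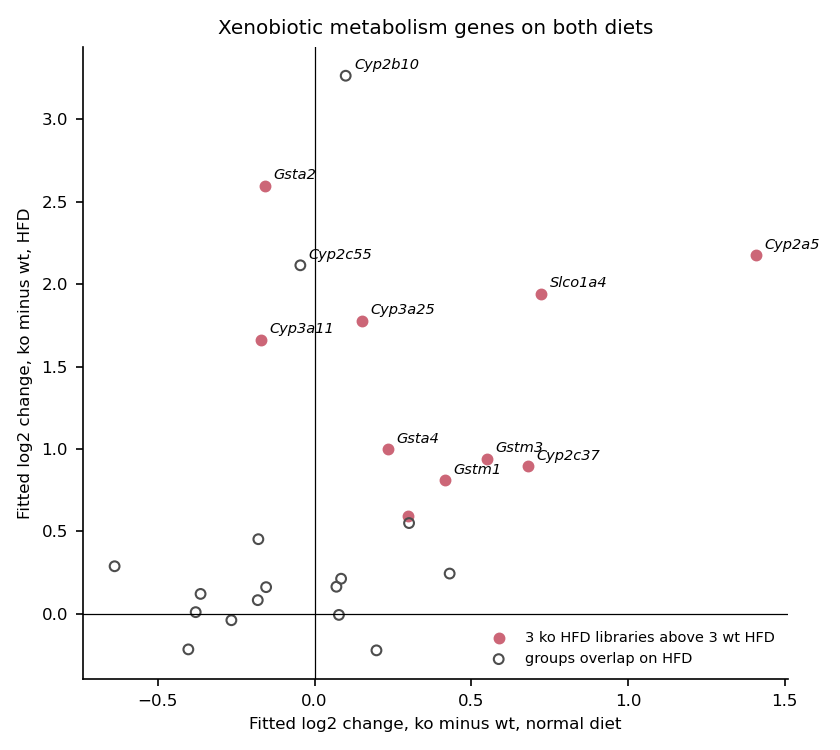
Fitted log2 change of ko minus wt for the 26 tested xenobiotic metabolism genes on the normal diet (horizontal axis) and on HFD (vertical axis), each point a gene. Filled points are the 10 genes whose 3 ko HFD libraries all lie above the 3 wt HFD libraries. Gsta2 and Cyp3a11 lie high on the HFD axis and near 0 on the normal-diet axis, and Cyp2a5 lies above 0 on both.

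Genes induced by interferons lay mostly above 0. Of 26 genes of the type I interferon response, 25 lay above 0 and 7 were higher in all ko libraries, against 6.70% of all genes, with a median of 0.62 and no call. Irf7, the transcription factor that amplifies the response, stood at 81.4, 81.6 and 95.5 CPM in wt and at 150.03, 169 and 159 CPM in ko (0.89, adjusted p = 0.366). Isg15, a ubiquitin-like modifier, stood at 14.2, 12.1 and 25.1 CPM against 17.9, 51.3 and 58.0 CPM (1.31, adjusted p = 0.463), where ko replicate 1 lay within the wt range. All 16 interferon-induced GTPases, which attack the vacuoles of intracellular microbes, lay above 0, with a median of 1.09 that was 0.71 without ko replicate 3, and 5 were higher in all ko libraries. Gbp3 stood at 4.21, 4.26 and 4.48 CPM in wt and at 6.60, 11.1 and 13.4 CPM in ko (1.26, adjusted p = 0.217). Igtp stood at 14.7, 11.3 and 22.3 CPM against 18.9, 37.2 and 72.0 CPM (1.40, adjusted p = 0.419), again with ko replicate 1 within the wt range. The mean level of the GTPase list, relative to the wt mean, was 0.21 in ko replicate 1, 0.81 in replicate 2 and 1.41 in replicate 3, against -0.16 to 0.25 in wt.

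Of 15 genes of antigen presentation on MHC class I, 7 were higher in all ko libraries, against 6.70% of all genes, with a median of 0.35. Psmb9, an immunoproteasome subunit, stood at 25.9, 22.6 and 24.4 CPM in wt and at 29.6, 51.6 and 60.7 CPM in ko (0.96, adjusted p = 0.314). B2m, the light chain of class I molecules, stood at 1358, 1356 and 1584 CPM against 1655, 2098 and 2710.5 CPM (0.59, adjusted p = 0.495). No gene of these 3 lists was called. The medians of the 3 lists on the normal diet were 0.99, 0.77 and 0.56.

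Markers of T and NK cells also lay above 0 on HFD, and none was called. Of the 14 listed, 8 passed the filter on low counts, all 8 lay above 0 and 5 were higher in all ko libraries, against 6.70% of all genes. Their median was 0.99 on HFD and -0.37 on the normal diet. Ccl5, a chemokine of T cells, stood at 0.842, 1.16 and 0.737 CPM in wt and at 2.86, 1.73 and 2.95 CPM in ko (1.46, adjusted p = 0.414). The summed level of the 8 markers was 4.87 to 5.49 CPM in wt and 9.73 to 10.8 CPM in ko. For 7 tested B cell markers it was 11.7 to 15.8 CPM in wt and 19.9 to 32.2 CPM in ko. In these bulk samples, fewer cells of a type and less RNA per cell cannot be told apart, and the part of lymphocyte RNA in the interferon genes was not tested. The median of the B cell list was -2.0 on the normal diet, where wt replicate 2 stands apart.

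Acute phase genes split the ko group. Saa1, a serum amyloid A gene chosen after its values were seen, stood at 12324, 13606 and 12994 CPM in wt, at 15302 CPM in ko replicate 1, and at 169 and 271 CPM in ko replicates 2 and 3. Ko replicate 1 was thus above all wt libraries and the other ko libraries far below them. The mean level of the 23 genes, relative to the wt mean on the log2 scale, was 0.31 in ko replicate 1, -2.14 in replicate 2 and -1.94 in replicate 3, against -0.11 to 0.10 in wt. The list had a median of -0.60 with no gene called, and -1.46 without ko replicate 1. Hp, haptoglobin, stood at 36578, 35045 and 28187 CPM in wt and at 30617, 13845 and 9192 CPM in ko (-0.90, adjusted p = 0.565). Fgb, a fibrinogen chain, stood at 4537, 7364 and 7369 CPM against 5708, 2591 and 3113 CPM (-0.76, adjusted p = 0.556). Of the 8 neutrophil markers listed, 4 passed the filter on low counts. Among them S100a9, S100a8 and Retnlg split in the same way. S100a9 was at 17.3 CPM in ko replicate 1 and at 0.460 and 1.19 CPM in the other ko libraries. In wt S100a9 ran from 3.97 to 9.30 CPM. Csf3r was also highest in ko replicate 1, at 13.1 CPM. In the other ko libraries Csf3r was at 4.78 and 5.08 CPM, within the wt range. The part of neutrophil RNA in these values was not tested. Some interferon genes had the opposite order, lowest in ko replicate 1, as given above for Isg15 and Igtp.

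Genes of the endoplasmic reticulum stress response lay mostly below 0 on HFD. Of 21 tested, 18 lay below 0 and 6 were lower in all ko libraries, against 6.85% of all genes, with a median of -0.40 that was -0.21 without wt replicate 3, and no call. Atf3, a stress-induced transcription factor, stood at 10.2, 9.94 and 35.4 CPM in wt and at 4.73, 1.90 and 3.82 CPM in ko (-2.41, SE 0.57, adjusted p = 0.268). Atf4, the effector of the integrated stress response, stood at 169, 134 and 177 CPM against 124, 103 and 96.0 CPM (-0.57, adjusted p = 0.450). Dnajc3, a chaperone, stood at 173, 169 and 202 CPM against 145, 102 and 109 CPM (-0.61, adjusted p = 0.482). All ko libraries were below all wt libraries in these 3 genes. Ddit3, encoding the proapoptotic factor CHOP, overlapped between groups, at 82.7, 14.6 and 124 CPM against 18, 28.8 and 22.5 CPM. On the normal diet the median of the same list was 0.60.

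Among genes of glucose handling, Igfbp1, a secreted binder of insulin-like growth factors that insulin represses, stood at 151, 249 and 989 CPM in wt and at 95.6, 9.84 and 12.3 CPM in ko (-3.56, SE 0.87, adjusted p = 0.297). All ko libraries were below all wt libraries, though each group ranged widely. Slc2a2, the glucose transporter of hepatocytes, stood at 91.9, 78.3 and 65.5 CPM against 124, 165 and 177 CPM (0.99, SE 0.23, adjusted p = 0.268). It was higher in every ko library, and was called on the normal diet (1.91, adjusted p = 0.00984). None of the 17 genes of glucose handling was called on HFD. Of them 2 were higher in all ko libraries and 2 lower, against 6.70% and 6.85% of all genes. Their median was 0.16, and -0.02 without wt replicate 1. In the circadian clock, Per2 stood at 32.8, 12.1 and 19.8 CPM in wt and at 47.2, 37.5 and 41.4 CPM in ko (0.96, adjusted p = 0.485), and Arntl, which acts in the opposite phase, at 2.95, 2.26 and 7.08 CPM against 1.05, 2.07 and 1.76 CPM (-1.33, adjusted p = 0.492). The groups of both clock genes did not overlap. Of the 18 clock genes 2 were higher in all ko libraries and 1 lower, against the same shares of all genes, and none was called. The median of the 18 clock genes was 0.30, and 0.02 without ko replicate 1.

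Beside Hoga1 and Ddah1, amino acid genes were read in 4 lists. Of 11 genes of the urea cycle and ammonia handling, 8 lay above 0 and 2 were higher in all ko libraries (6.70% of all genes), with a median of 0.28 that was 0.47 without wt replicate 3. Arg1, arginase, stood at 623, 446 and 555 CPM in wt and at 669, 737 and 1107 CPM in ko (0.63, adjusted p = 0.499). Of 12 genes of tryptophan breakdown and NAD, 3 were higher in all ko libraries, among them Afmid at 21.8, 13.7 and 8.44 CPM against 29.3, 27.8 and 28.1 CPM (0.96, adjusted p = 0.414). Nnmt, which methylates nicotinamide, was lower in all ko libraries, at 625, 581 and 462 CPM against 403, 359 and 192 CPM (-0.81, adjusted p = 0.421). The 9 genes of hydroxyproline and glyoxylate had a median of 0.03, and the 8 of dimethylarginine and nitric oxide of -0.01, and Hoga1 and Ddah1 had the highest log2 changes of their lists. Ddah2, the other dimethylarginine hydrolase, was lower in all ko libraries, at 3.85, 5.87 and 3.57 CPM against 3.15, 2.82 and 3.32 CPM (-0.51, adjusted p = 0.628).

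Markers of the cells that liver tissue holds besides hepatocytes varied between single libraries. All 11 endothelial markers lay below 0, with a median of -0.42 that was -0.20 without ko replicate 1. Of them 1 was lower in all ko libraries, against 6.85% of all genes, and none was called. Their summed level was 324 to 443 CPM in wt and 238 to 365 CPM in ko. Stellate cell and matrix markers had a median of -0.42 that turned to 0.11 without wt replicate 2. Acta2, smooth muscle actin, was at 128 CPM in that library, at 1.53 and 1.68 CPM in the other wt libraries and at 0.701 to 14.7 CPM in ko. Krt19, a bile duct keratin, was at 44.5 CPM in the same library, at 0.541 and 3.46 CPM in the other wt libraries and at 0.691 to 1.32 CPM in ko. Cfd, made by adipocytes, was at 72.9 CPM in ko replicate 3 and at 6.91 CPM in ko replicate 2, and at most at 0.710 CPM in the other 4 HFD libraries, while the defining adipocyte markers Adipoq, Lep, Plin1 and Retn did not pass the filter on low counts. Skeletal muscle markers summed to 2.78 to 12.9 CPM in the HFD libraries. The part of these cell types in the values given above was not tested.

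**Figure D5:**
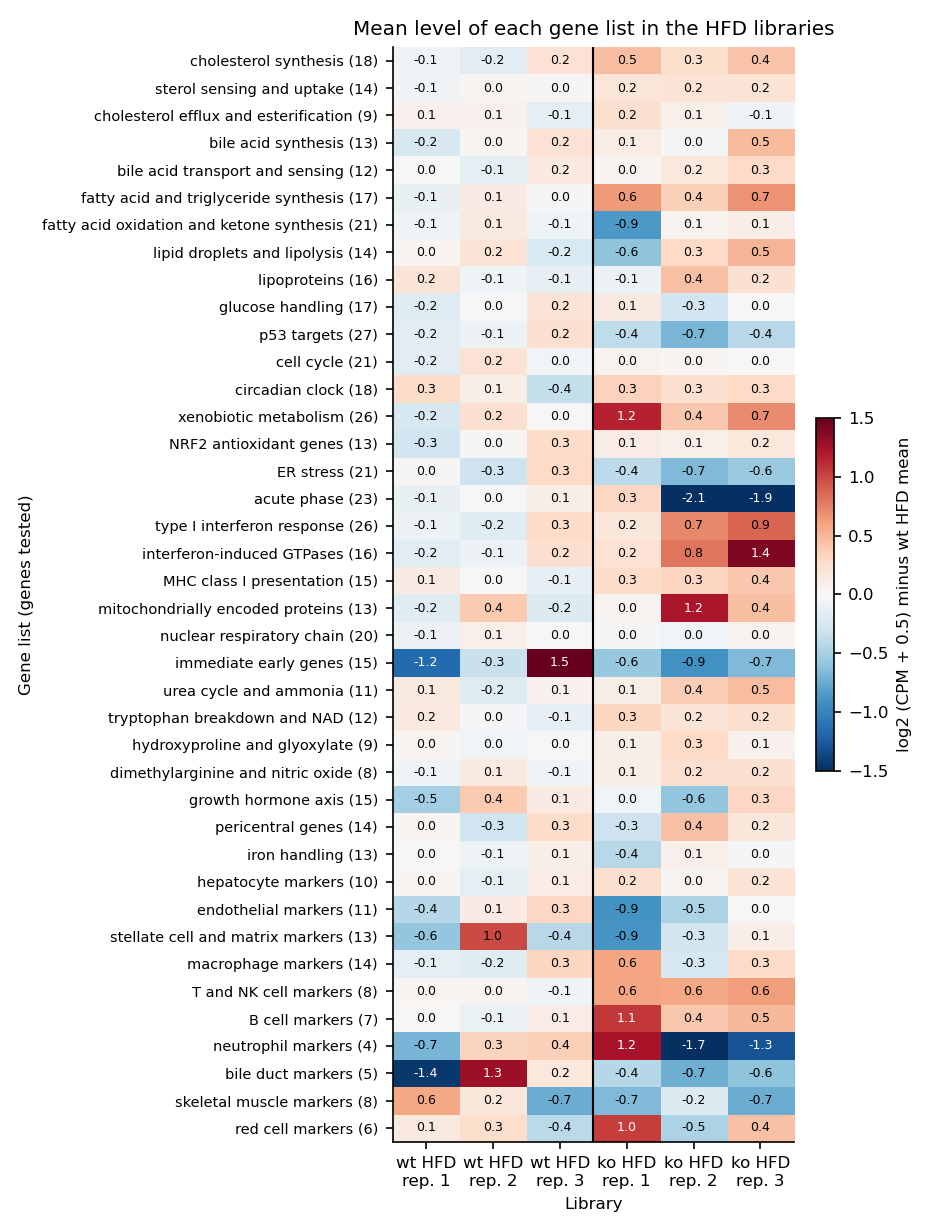
Mean level of each gene list with at least 4 genes tested (rows, number tested in brackets) in the 6 HFD libraries (columns), as log2 (CPM + 0.5) minus the wt HFD mean of each gene, with values printed to 1 decimal and colours ending at 1.5 on either side. Xenobiotic, interferon, T and NK cell lists are higher in all ko libraries than the wt mean, p53 target and endoplasmic reticulum stress lists lower, and the acute phase list splits ko replicate 1 from replicates 2 and 3. Ko replicate 1 lies within the wt range in the type I interferon and GTPase lists.

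The other lists had these median log2 changes. They were 0.14 for bile acid transport and sensing, -0.02 for cholesterol efflux and esterification, 0.11 for lipoproteins, 0.07 for lipid droplets and lipolysis, 0.02 for the cell cycle and 0.08 for antioxidant genes of the NRF2 pathway. They were -0.01 for nuclear genes of the respiratory chain, 0.11 for the growth hormone axis, 0.13 for pericentral genes, -0.04 for iron handling, 0.15 for macrophage markers, 0.62 for red cell markers and 0.27 for hepatocyte markers. With single HFD libraries left out, these medians changed sign, except those for iron handling, red cell markers (0.13 without ko replicate 1) and hepatocyte markers (0.42 without wt replicate 3). Of pancreas acinar markers only Cela1 (0.11) and Cela2a (-1.59) passed the filter. Of the 10 hepatocyte markers 7 lay above 0 and 3 below, Fgb (-0.76) among the latter. Alb stood at 27186, 17789 and 24903 CPM in wt and at 43893, 36294 and 45464 CPM in ko (0.85, adjusted p = 0.401), higher in all ko libraries. Apoa1, the main protein of high-density lipoprotein, stood at 11735, 15812 and 10892 CPM against 16899, 19652 and 17779 CPM (0.50, adjusted p = 0.563).

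The effect of the knockout on HFD was tested against its effect on the normal diet, over libraries that the comparisons do not share. No gene passed edgeR's quasi-likelihood test (0% of 14433), with 725 genes at an unadjusted p under 0.05, and DESeq2 called 15. On the normal diet 30 genes were called (0.208%). The smallest adjusted p of the difference was 0.0587, for Serpina12, which encodes the adipokine vaspin. It stood at 213, 264 and 183 CPM in wt and at 199.6, 170.2 and 221 CPM in ko on HFD, where the groups overlapped (log2 change -0.16). On the normal diet it stood at 25.7, 14.5 and 13.2 CPM in wt and at 108, 121 and 89.8 CPM in ko, with all ko libraries above all wt libraries (2.58). Foxq1, a forkhead factor, followed with 16.8, 15.5 and 29.1 CPM against 13.0, 10.4 and 15.4 CPM on HFD (-0.66) and 2.03, 2.62 and 5.52 CPM against 19.5, 20.4 and 15.1 CPM on the normal diet (2.43), with a difference of -3.09 (adjusted p = 0.217). Cdk5rap3, Igha and Derl3 came next, with differences of -1.16, 3.48 and -2.41 (adjusted p = 0.675 for each).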

How the data were processed

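RNA was sequenced in 12 liver libraries, of which the 3 ko and 3 wt libraries on HFD form the main comparison. The deposited files hold the authors' whole-number read counts per gene, used as they stand. The submitters' processing notes name CASAVA 1.8, Bowtie 0.12.2 and the builds mm8 and mm9, with no role for either build. The sources used here give neither the counter, the annotation nor the handling of strand. Positions and transcript sequences are those of GENCODE M21 on GRCm38, looked up by gene identifier.

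Counts were filtered with filterByExpr, scaled by TMM and tested with edgeR 4.0.16 (R 4.3.3) by the quasi-likelihood test in 1 fit of 4 groups to 12 libraries, with Benjamini-Hochberg adjustment over 14433 genes. A gene was called at an adjusted p under 0.05. DESeq2 1.42.0, voom of limma 3.58.1, other filters and scalings, the HFD libraries alone, a replicate block and leaving out each library were alternatives. Floors are 3 counts over a group and intervals are exact 95% intervals, both for counting error only. Replicates of an HFD group differed by a chi-square statistic of 58.9 to 199 per degree of freedom, over genes with at least 20 counts.

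The 42 gene lists, with 611 entries, and the genes named were chosen with earlier results of these data known, and lists are described without a test. Some genes of the cholesterol synthesis list are not reported here and are in none of its counts or medians. Named are Trp53, Sqle, all called genes, members of the 16 genes next in p whose groups do not overlap, up to 4 members of a list with the smallest p, and the 5 genes with the smallest p for the difference between diets. Genes named outside this rule are marked, stand in a count of non-overlapping members, or are named as lacking a test or a promoter window.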

Additional observations from a re-analysis of the deposited data

How the results depend on the processing

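The counts of called genes depended on the processing. With 6 higher and 4 lower as reported, there were 3 higher with only the 6 HFD libraries, 11 with size factors by relative log expression, 12 with library totals alone, 31 higher and 20 lower without a filter, 67 higher and 28 lower by DESeq2, and 1 lower by voom with quality weights. DESeq2 gave no adjusted p for 101 genes. Of the 10 genes, all 10 were among those called without a filter, by DESeq2 and under both other scalings. Leaving out 1 library gave 1 to 10 higher and 0 to 4 lower: 10 higher without ko normal replicate 1, 3 higher without ko normal replicate 3, 1 higher without wt HFD replicate 3, and 2 higher (Ddah1 and Gm47917) and 0 lower without any ko HFD replicate. For the difference between diets, 0 genes were called either way in the main test, 6 higher and 7 lower without a filter, 6 and 9 by DESeq2, 1 lower by voom, and 0 to 1 lower with 1 library left out.

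The replicate block gave 3 higher and 4 lower, with 6 of the 10 genes kept. Deviations from the group mean had correlations from -0.283 to 0.389 (median 0.01) in same-numbered libraries, and from -0.295 to 0.288 (median -0.01) in others. The highest, 0.389, was between replicate 3 of wt HFD and replicate 3 of ko HFD. Whether the numbers pair the libraries was not tested.

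Over 184 named gene results and 20 alternatives, 3511 of 3662 values kept direction and side of the threshold, 63 lost a call, 68 gained one and 20 changed sign. The sign of S100a8 (main 0.01) changed with library totals alone (-0.035), by voom (-1.13) and under the replicate block (-0.18), and that of Slc4a1 by voom (-0.55). Of 840 list medians under the alternatives, 43 changed sign, in 16 of the 42 lists. The cause was not tested.

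With 1 library left out, signs changed for Cidea (-0.16 to 1.93), Egr1 (-3.34 to 0.35), Acta2 (-4.53 to 1.94), Csf3r (-0.29 to 0.60), S100a9 (-3.17 to 0.32), Retnlg (-2.81 to 0.44), S100a8 (-2.59 to 0.51), Krt7 (-2.44 to 0.58), Sox9 (-0.61 to 0.19), Cela1 (-0.10 to 0.41), Slc4a1 (-3.24 to 3.50) and Hbb-bt (-0.066 to 0.90). A group with no count of a gene may hold up to 3 at this depth, so such folds are lower bounds.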
